A study of Homo sapiens with 8 samples.

Results

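Ewing sarcoma cells carry a set of surface antigens that are used to diagnose the tumour or are studied as targets for antibodies and engineered T cells. Transcript levels of 10 genes behind these antigens were followed here: CD99, IL1RAP, CD276, ROR1, NCAM1, B4GALNT1, ST8SIA1, CDH11, SLCO5A1 and LINGO1. They were chosen by name among the 60332 genes of the expression matrix, with the row of the highest mean taken for each symbol, and all 10 were found. Of these 10 genes, 9 reached a mean of 1 FPKM across the 8 libraries, the filter used, and were tested among 15175 genes in all. ST8SIA1 did not pass and is given as values. FPKM divides the reads of a gene by transcript length and by library size, so that levels of different genes can be set side by side.

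The 8 RNA libraries came from the Ewing sarcoma cell lines RD-ES and SK-N-MC, each with a control group and an eKD2 group of 2 libraries. By the labels all cells carried lentiviral dCas9-KRAB, in which a Cas9 unable to cut DNA is fused to a repressor domain. The study selected infected cells with puromycin. In eKD2 cells a guide directed dCas9-KRAB to a site next to the GGAA repeat in the LOXHD1 enhancer. In control cells the virus was empty according to the labels, while the study's text calls the controls parental and their sample titles read cas9. If the labels hold, each group is a selected population of infected cells within 5 passages of selection. The labels do not say whether the libraries of a group came from separate infections. The study calls its replicates biological duplicates. The spread between them is otherwise undescribed and may be partly technical. Differences between lines and differences between their infected populations cannot be told apart.

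The knockdown was checked on LOXHD1, which was at 21.4 and 21.2 FPKM in the RD-ES controls and 1.04 and 1.02 FPKM in eKD2 cells of that line, and at 158.9 and 169 FPKM in the SK-N-MC controls and 11 and 12.0 FPKM in eKD2 cells. All 10 genes of a list of Ewing sarcoma markers were detected and tested, among them CCND1 (means of 433 to 649 FPKM in the 4 groups) and NKX2-2 (24.5 to 30.0 FPKM). Other markers of this list were less even. NR0B1 averaged 3.08 FPKM in RD-ES control and 53.1 FPKM in SK-N-MC control, and LIPI 59.2 and 20.9 FPKM. Skeletal muscle markers summed to at most 0.201 FPKM and the measured endothelial markers to at most 0.892 FPKM in any library. Epithelial markers summed to 38.6 to 60.5 FPKM, most of it KRT18 (means of 36.01 to 52.4 FPKM), with EPCAM at 4.29 FPKM in SK-N-MC control and KRT5 listed at 0. The RD-ES eKD2 libraries differed in other markers of this list. CDH1 was at 3.50 FPKM in replicate 1 and 0.0369 FPKM in replicate 2, and KRT8 at 8.24 and 1.38 FPKM. The cause was not tested. Read depth is not given with the values. From the steps between low values it was estimated roughly at 6.84 to 27.4 M reads (M, mega), with the shallowest library in RD-ES eKD2.

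CD99 is the membrane glycoprotein whose staining is used to recognise Ewing sarcoma, and NCAM1 (CD56) and CDH11 are adhesion molecules of neural and mesenchymal cells. B4GALNT1 and ST8SIA1 are Golgi enzymes, the GD2/GM2 synthase and the GD3 synthase, which together make the ganglioside antigen GD2. IL1RAP is the shared co-receptor of the interleukin-1 receptor family, ROR1 a receptor tyrosine kinase-like protein that binds WNT5A, and LINGO1 a leucine-rich repeat protein of the Nogo receptor complex. CD276 (B7-H3) belongs to the B7 family of immune checkpoint ligands, and SLCO5A1 to the organic anion transporters. The fusion protein EWSR1::FLI1, which drives the tumour, binds repeats of the motif GGAA and can turn them into enhancers.

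Since the members are studied in tumour cells that carry this fusion, the reference genome (GRCh37, the build of the files) was searched around the members for runs of at least 5 GGAA units on either strand, within 100 kb of the outermost annotated gene start. Such a run was present for 8 of the 10 members and for 39.8% of the 15009 tested genes that could be matched to the annotation. The sets differ in that ST8SIA1 is among the 10 and not among the tested genes. None was found for ST8SIA1 or CDH11. The runs nearest to the starts of 5 members are shown, since they differ in length and place. Each is given 5′ to 3′ on the strand that reads GGAA, with the repeat in capitals and 20 bases of flank on each side in lower case.

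IL1RAP: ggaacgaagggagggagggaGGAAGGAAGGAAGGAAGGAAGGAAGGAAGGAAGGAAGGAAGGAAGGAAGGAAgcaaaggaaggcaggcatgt
ROR1: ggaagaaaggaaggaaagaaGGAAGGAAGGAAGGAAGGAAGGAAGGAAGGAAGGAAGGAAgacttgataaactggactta
CD99: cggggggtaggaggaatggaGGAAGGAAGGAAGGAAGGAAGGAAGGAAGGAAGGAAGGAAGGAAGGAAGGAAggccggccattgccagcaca
NCAM1: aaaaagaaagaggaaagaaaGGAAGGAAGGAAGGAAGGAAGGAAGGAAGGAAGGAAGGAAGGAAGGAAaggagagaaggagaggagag
B4GALNT1: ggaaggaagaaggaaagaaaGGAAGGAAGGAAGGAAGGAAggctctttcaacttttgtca

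The IL1RAP run has 13 units at chr3:190240080-190240131 (minus strand), in an intron of IL1RAP 8.24 kb downstream of its start. The ROR1 run has 10 units at chr1:64234376-64234415 (minus strand), between genes 5.27 kb upstream of the ROR1 start. The CD99 run has 13 units at chrX:2583204-2583255 (minus strand), 26.0 kb upstream. The NCAM1 run has 12 units at chr11:112882687-112882734 (minus strand), in an intron of NCAM1 50.7 kb from its start. The B4GALNT1 run is the shortest of the 5, with 5 units at chr12:58058226-58058245 (minus strand), 31.2 kb upstream. The longest of the nearest runs, with 18 units, lies 5.44 kb upstream of SLCO5A1, which had 4 runs in the window, and its sequence is not shown. For LINGO1 the run has 16 units in an intron 82.1 kb from the start, and for CD276 it has 7 units 94.4 kb from the start. The coordinates are those of the repeat alone. These are reference sequences, the repeat lengths in RD-ES and SK-N-MC were not analysed here, and a repeat within this distance is a description and not a binding site.

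The levels of the members spanned from the top of the expressed genes to the limit of detection (plot of levels by library). In RD-ES control the order of means was CD99, IL1RAP, CD276, CDH11, LINGO1, SLCO5A1, B4GALNT1, ROR1, NCAM1 and ST8SIA1, from 576 down to 0.0363 FPKM. CDH11 and LINGO1 were the only neighbours in that order whose libraries overlapped. In SK-N-MC control CDH11 came first, followed by CD99, IL1RAP, LINGO1, CD276, NCAM1, SLCO5A1, B4GALNT1, ROR1 and ST8SIA1, from 278 down to 0.380 FPKM, and no neighbours overlapped. CD99 exceeded 98.8% of the tested genes in RD-ES control and 96.5% in SK-N-MC control. CDH11 exceeded 76.1% and 97.6%, and NCAM1 8.87% and 59.1%.

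**Figure D1:**
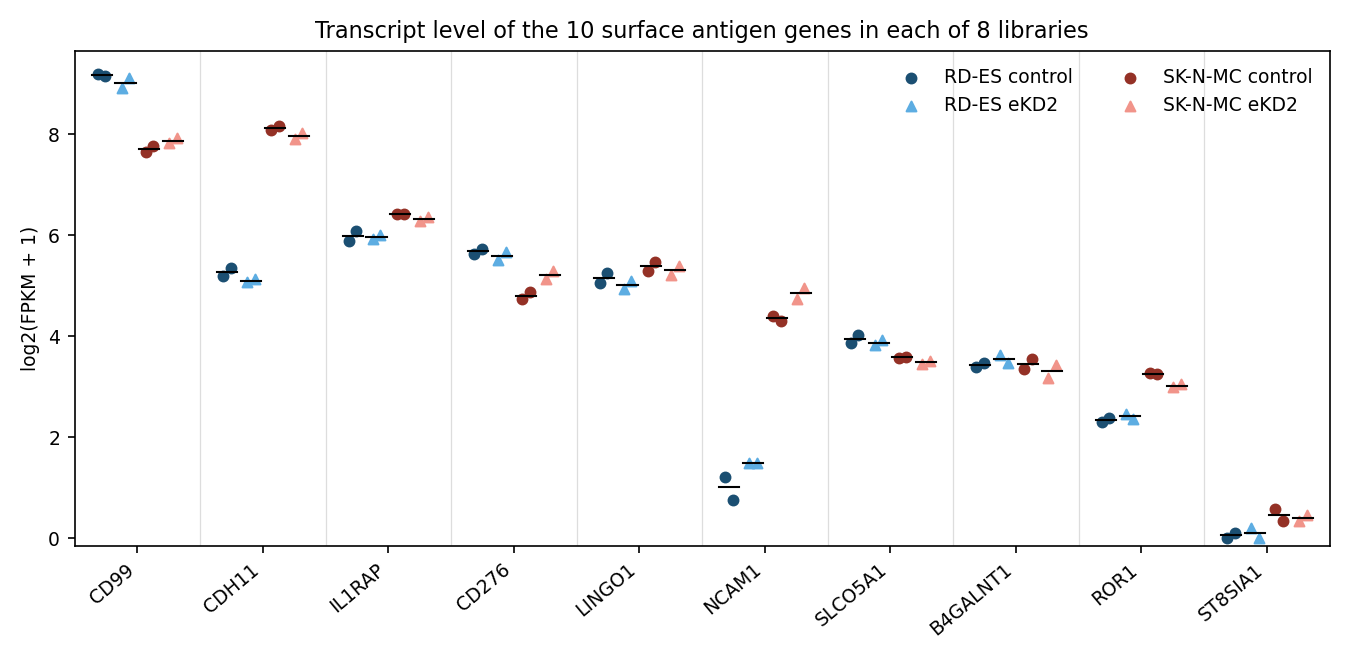
Transcript level, as log2(FPKM + 1), of the 10 surface antigen genes in the 8 libraries. Points are libraries (circles control, triangles eKD2, blue RD-ES, red SK-N-MC) and black bars mark the group mean. The libraries of the lines lie apart for CD99, CDH11, IL1RAP, CD276, NCAM1, SLCO5A1 and ROR1, and for ST8SIA1, which lies near 0 in every library. The share of all tested genes that separate this way was not counted. Between the control groups 57.8% of them differed (limma adjusted p under 0.05).

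Between the 2 lines without knockdown, 7 of the 9 tested members differed (limma on log2(FPKM + 1), Benjamini-Hochberg adjusted p under 0.05), 4 higher in SK-N-MC and 3 higher in RD-ES. Of all tested genes 57.8% differed in the same comparison, 31.4% higher in SK-N-MC and 26.4% higher in RD-ES, so the members' share is read against that background. At an unadjusted p under 0.05 it was again 7 members, and 63.0% of all genes. The median difference was 0.23 over the tested members and 0.06 over all tested genes (log2). Scaling the libraries to a common median lowered this comparison's values by 0.14 (log2), which did not change the direction of any of the 7.

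NCAM1 showed the largest difference among the members. It was at 1.32 and 0.694 FPKM in the RD-ES control libraries and at 20.2 and 18.8 FPKM in SK-N-MC control, so that every SK-N-MC library was far above every RD-ES library. The mean was 19.4-fold higher in SK-N-MC (19.5 ± 1.01 against 1.01 ± 0.444 FPKM, SD, n = 2 each), a log2 difference of 3.37 (standard error 0.167, limma adjusted p = 3.29e-05). The pseudocount weighs on this value, which was 4.21 with a pseudocount of 0.1. NCAM1 (ENSG00000149294.16_4) lies on chromosome 11, bases 112831997 to 113149158 of GRCh37, on the plus strand.

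CDH11 was at 35.7 and 39.9 FPKM in RD-ES control and at 269.7 and 287 FPKM in SK-N-MC control. Its mean was 7.37-fold higher in SK-N-MC (278 ± 12.2 against 37.8 ± 2.94 FPKM, SD, n = 2 each), a log2 difference of 2.85 (standard error 0.0836, limma adjusted p = 6.55e-06). CDH11 (ENSG00000140937.13_3) is annotated on chromosome 16, bases 64977656 to 65160015, minus strand. In SK-N-MC control CDH11 had a higher FPKM than CD99, while in SK-N-MC eKD2 the libraries of these genes overlapped. In RD-ES CD99 stood far above CDH11.

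Most fibroblast markers also differed between the lines, and their part in the differences of CDH11 and NCAM1 was not tested. Of 6 such genes, 5 were higher in SK-N-MC control and none lower (limma adjusted p under 0.05), beside 31.4% and 26.4% of all tested genes. The summed level of the 6 was 365 to 367 FPKM in SK-N-MC control against 20.2 to 27.8 FPKM in RD-ES control. DCN (decorin) averaged 136 FPKM in SK-N-MC control and 0.995 FPKM in RD-ES control, COL1A2 86.1 and 0.529 FPKM, and PDGFRB 6.47 and 10.9 FPKM. PTPRC (CD45), a leukocyte gene, averaged 22.04 FPKM in SK-N-MC control and 0.0155 FPKM in RD-ES control, while CD3E was listed at 0 in every library. In bulk RNA a gene expressed by fewer cells and a gene with less RNA per cell cannot be told apart.

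**Figure D2:**
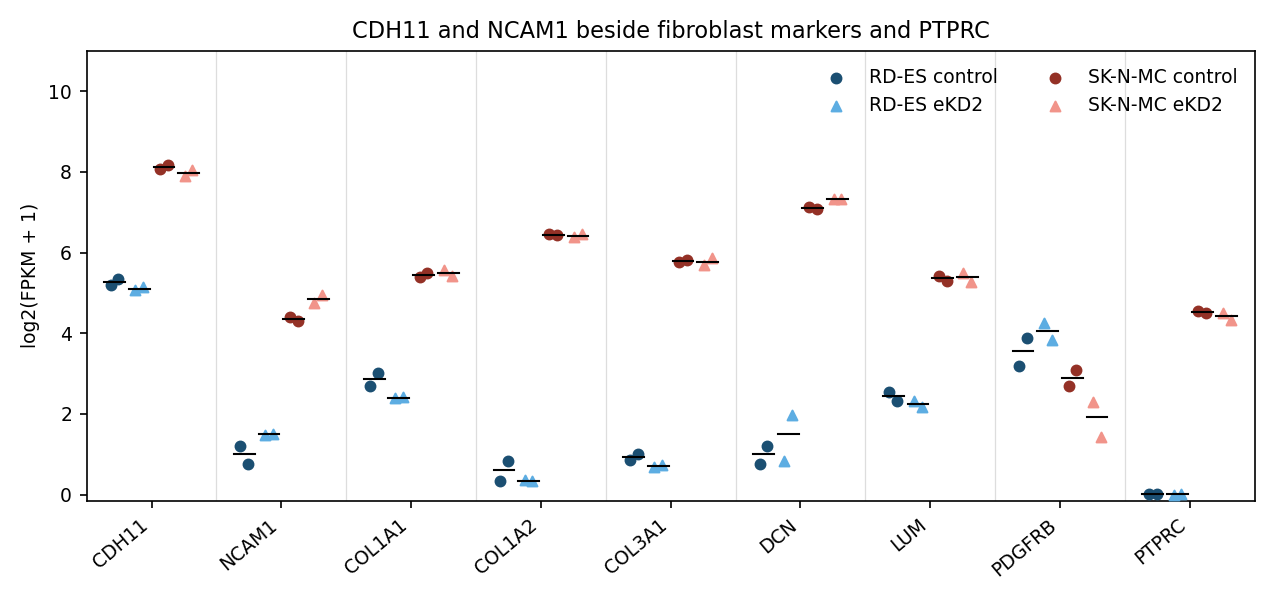
Levels, as log2(FPKM + 1), of CDH11 and NCAM1 beside 6 fibroblast marker genes and PTPRC in the 8 libraries, with black bars at the group mean. The collagens, DCN, LUM and PTPRC are higher in all 4 SK-N-MC libraries than in all 4 RD-ES libraries, like CDH11 and NCAM1, and PDGFRB is not.

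CD99 was higher in RD-ES. The control libraries held 586 and 566 FPKM in RD-ES and 201 and 216 FPKM in SK-N-MC. Their means were 576 ± 13.9 FPKM and 209 ± 11.2 FPKM (SD, n = 2), which is 2.76-fold higher in RD-ES, a log2 difference of -1.46 as SK-N-MC minus RD-ES (SE 0.0835, limma adjusted p = 5.17e-05). CD99 (ENSG00000002586.18_3) is annotated on chromosome X, bases 2609228 to 2659350, plus strand. It lies in the pseudoautosomal region that X shares with Y, and reads from the copies cannot be told apart.

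CD276 followed CD99 in direction, with 48.7 and 52.3 FPKM in RD-ES control and 25.7 and 28.2 FPKM in SK-N-MC control. The groups did not overlap, and the mean was 1.87-fold higher in RD-ES (log2 difference -0.88, standard error 0.0984, limma adjusted p = 0.000611). CD276 (ENSG00000103855.17_2) lies on chromosome 15, bases 73976307 to 74006855, plus strand.

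The receptors were higher in SK-N-MC or did not differ past the threshold. ROR1 was at 3.92 and 4.23 FPKM in RD-ES control and at 8.62 and 8.53 FPKM in SK-N-MC control, 2.11-fold higher by the means (log2 difference 0.92, standard error 0.0937, limma adjusted p = 0.000433). IL1RAP was at 58.4 and 66.5 FPKM in RD-ES and at 85.0 and 84.1 FPKM in SK-N-MC, 1.35-fold higher (log2 difference 0.43, standard error 0.0842, limma adjusted p = 0.00561). LINGO1 was at 32.2 and 37.0 FPKM in RD-ES and at 38.4 and 43.2 FPKM in SK-N-MC, a log2 difference of 0.23 (95% interval -0.058 to 0.52, limma adjusted p = 0.142). ROR1 and IL1RAP thus separated the lines without overlap by modest factors, and the gap between the LINGO1 groups was smaller than the spread within either. ROR1 (ENSG00000185483.11_2) spans bases 64239688 to 64647181 of chromosome 1 (plus strand), IL1RAP (ENSG00000196083.9_3) bases 190231840 to 190377539 of chromosome 3 (plus strand), and LINGO1 (ENSG00000169783.12_3) bases 77905369 to 78113242 of chromosome 15 (minus strand).

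**Figure D3:**
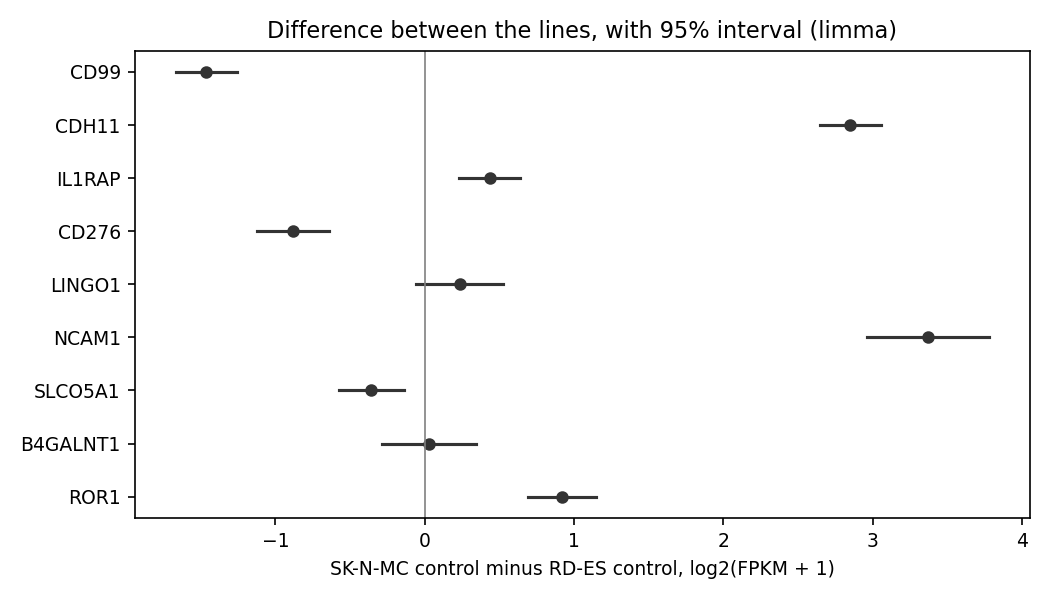
Difference in log2(FPKM + 1) between SK-N-MC control and RD-ES control for the 9 tested members, with the 95% interval of the limma fit. NCAM1 and CDH11 lie furthest to the SK-N-MC side, CD99 and CD276 furthest to the RD-ES side, and the intervals of LINGO1 and B4GALNT1 include 0.

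The GD2 enzymes differed from each other in level more than between the lines. B4GALNT1 was at 9.42 and 10.1 FPKM in RD-ES control and at 9.24 and 10.7 FPKM in SK-N-MC control. The groups overlapped, and the log2 difference was 0.03 (95% interval -0.29 to 0.34, limma adjusted p = 0.877) and turned to -0.11 with median scaling and -0.12 with quantile normalization. B4GALNT1 (ENSG00000135454.13_2) lies on chromosome 12, bases 58017192 to 58027022, minus strand. It shares 2136 bases, or 27.1% of its exonic sequence, with SLC26A10P on the other strand, which was at 5.9 to 15.6 FPKM in the same libraries. The library kit does not keep the strand, so reads of this stretch cannot be assigned to either gene.

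ST8SIA1, the enzyme that makes the precursor of GD2, was listed at 0 and 0.0726 FPKM in RD-ES control, at 0.148 and 0.00721 in RD-ES eKD2, at 0.492 and 0.267 in SK-N-MC control, and at 0.259 and 0.370 in SK-N-MC eKD2. All 4 SK-N-MC libraries were above all 4 RD-ES libraries, and none reached the mean of 1 FPKM that the filter asked for. Read as the longest annotated transcript and the rough depth, the values stand for at most about 10.7 reads in an RD-ES library and 31.9 to 131 reads in an SK-N-MC library. Without the filter the log2 difference between the control groups was 0.41 (limma adjusted p = 0.041). ST8SIA1 (ENSG00000111728.10_3) is annotated on chromosome 12, bases 22216707 to 22589975, minus strand.

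The enzymes that act before and beside them were named for their place in this route, with their values known. UGCG, which makes glucosylceramide, averaged 11.9 FPKM in RD-ES control and 9.01 FPKM in SK-N-MC control. B4GALT5, a lactosylceramide synthase, averaged 49.3 and 21.0 FPKM (limma adjusted p = 5.12e-05), and its relative B4GALT6 0.398 and 0.0675 FPKM. ST3GAL5, which makes GM3, averaged 6.27 FPKM in RD-ES control and 17.8 FPKM in SK-N-MC control (limma adjusted p = 0.000206). ST8SIA1 was thus the step with the lowest level in the route in RD-ES control, and B4GALT6, whose step B4GALT5 also carries out, had the lowest level in SK-N-MC control.

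**Figure D4:**
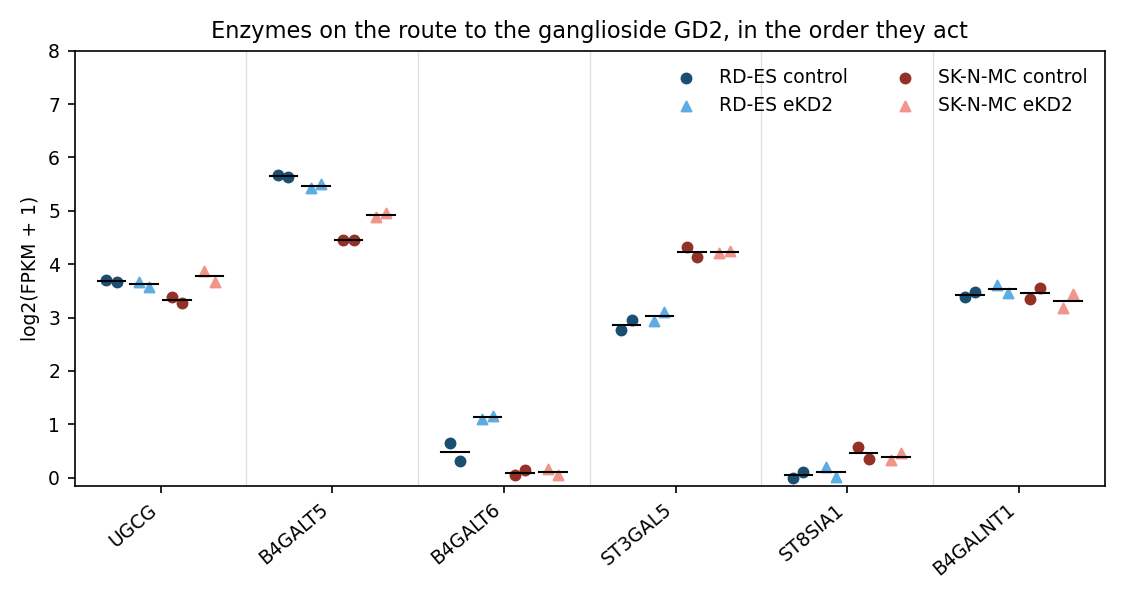
Levels, as log2(FPKM + 1), of UGCG, B4GALT5, B4GALT6, ST3GAL5, ST8SIA1 and B4GALNT1 in the 8 libraries, with black bars at the group mean. ST8SIA1 stays below 0.5 FPKM in all libraries, while B4GALNT1 lies between 8.05 and 11.3 FPKM.

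SLCO5A1 was at 13.6 and 15.2 FPKM in RD-ES control and at 10.9 and 11.1 FPKM in SK-N-MC control, 1.31-fold higher in RD-ES by the means. The log2 difference was -0.36 (standard error 0.0891, limma adjusted p = 0.0147). This call rested on the controls, since the adjusted p rose to 0.0703 without RD-ES control replicate 2, to 0.0711 without SK-N-MC control replicate 1 and to 0.061 without SK-N-MC control replicate 2. SLCO5A1 (ENSG00000137571.10_2) lies on chromosome 8, bases 70579281 to 70747213, minus strand, and shares 77 exonic bases with the antisense SLCO5A1-AS1 (5.3 to 18.3 FPKM).

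Knockdown of the LOXHD1 enhancer left every tested member short of the adjusted threshold. In RD-ES, 0 of 9 members changed by limma with an adjusted p under 0.05, against 0.343% of all genes, and 1 member had an unadjusted p under 0.05, against 12.3% of all genes (1 member and 8.49% of genes higher, 0 members and 3.79% lower). In SK-N-MC it was again 0 of 9, against 0.323%, and 3 members at an unadjusted p under 0.05, against 13.0% (2 members and 5.71% of genes higher, 1 member and 7.29% lower). With median scaling the higher share of such genes in RD-ES went from 69.1% to 40.6%. The median change over the tested members was -0.07 in RD-ES cells and -0.10 in SK-N-MC cells (log2), beside 0.03 and -0.0049 over all tested genes. No other tool was run, because the deposited values are FPKM. With 9 genes these counts are a description beside the background.

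NCAM1 was the member with a higher value in eKD2 in both lines. Its RD-ES libraries held 1.32 and 0.694 FPKM without and 1.80 and 1.82 FPKM with knockdown. Its SK-N-MC libraries held 20.2 and 18.8 FPKM without and 25.8 and 29.9 FPKM with knockdown. No eKD2 library overlapped its controls. The log2 change was 0.50 in RD-ES (95% interval 0.095 to 0.91, limma adjusted p = 0.319). In SK-N-MC it was 0.49 (95% interval 0.082 to 0.90, limma adjusted p = 0.312). Neither passed the adjusted threshold, and a low level in RD-ES makes that value depend on the pseudocount, with 0.85 at a pseudocount of 0.1.

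CD276 had the smallest unadjusted p of the members in SK-N-MC. It was at 25.7 and 28.2 FPKM in control and at 34.3 and 38.1 FPKM in eKD2, where both libraries lay above both controls. The mean was 34.1% higher (36.2 ± 2.68 against 26.96 ± 1.78 FPKM, SD, n = 2 each), a log2 change of 0.41 (standard error 0.0984, limma adjusted p = 0.206), and the adjusted p ranged from 0.0968 to 0.478 over the alternatives. In RD-ES CD276 was at 44.8 and 50.2 FPKM in eKD2 against 48.7 and 52.3 FPKM in control, which overlap, with a log2 change of -0.09 (95% interval -0.33 to 0.15).

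CD99 lay lower in eKD2 in RD-ES and higher in SK-N-MC. In RD-ES the eKD2 libraries held 482 and 550.2 FPKM, below the controls at 586 and 566 FPKM, a log2 change of -0.16 (95% interval -0.36 to 0.044, limma adjusted p = 0.505). In SK-N-MC they held 225 and 243 FPKM, above the controls at 201 and 216 FPKM, a log2 change of 0.17 (95% interval -0.038 to 0.37, limma adjusted p = 0.475). The groups did not overlap in either line, and both intervals include 0.

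ROR1 was at 6.94 and 7.28 FPKM in SK-N-MC eKD2, below the controls at 8.62 and 8.53 FPKM, a log2 change of -0.24 (95% interval -0.47 to -0.011, limma adjusted p = 0.364). In RD-ES its eKD2 libraries held 4.51 and 4.16 FPKM, which overlaps the controls at 3.92 and 4.23 FPKM, with a log2 change of 0.07 (95% interval -0.16 to 0.30) that was -0.0068 after quantile normalization. IL1RAP was at 59.7 and 63.5 FPKM after knockdown in RD-ES, overlapping its controls, and at 76.4 and 81.6 FPKM in SK-N-MC, below its controls, with log2 changes of -0.02 (95% interval -0.22 to 0.19) and -0.10 (95% interval -0.30 to 0.11). LINGO1 was at 29.4 and 33.3 FPKM after knockdown in RD-ES and at 36.0 and 40.9 FPKM in SK-N-MC, overlapping its controls in both lines, with log2 changes of -0.14 and -0.08. Of the receptors, only ROR1 in SK-N-MC thus had an interval on 1 side of 0.

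CDH11 lay below its controls in both lines, with eKD2 values of 32.5 and 34.1 FPKM in RD-ES and of 239 and 261 FPKM in SK-N-MC. The log2 changes were -0.18 (95% interval -0.38 to 0.029, limma adjusted p = 0.468) and -0.15 (95% interval -0.36 to 0.049, limma adjusted p = 0.507). SLCO5A1 was at 13.1 and 14.1 FPKM in RD-ES eKD2, which overlaps the controls, and at 9.99 and 10.4 FPKM in SK-N-MC eKD2, below them, with log2 changes of -0.07 and -0.10. B4GALNT1 was at 11.3 and 10.03 FPKM after knockdown in RD-ES and at 8.05 and 9.83 FPKM in SK-N-MC, overlapping its controls in both lines, with log2 changes of 0.11 (95% interval -0.20 to 0.43) and -0.15 (95% interval -0.46 to 0.17). Among the 9 members the 95% intervals of NCAM1 were the widest, reaching 0.91 (log2), and that of IL1RAP in RD-ES reached from -0.22 to 0.19.

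Counted by whether the groups overlap, NCAM1 was higher without overlap in RD-ES eKD2, as were 24.2% of all tested genes, and CD99 and CDH11 were lower, as were 15.1%. In SK-N-MC eKD2, CD99, CD276 and NCAM1 were higher without overlap, against 22.2% of all genes, and IL1RAP, ROR1, CDH11 and SLCO5A1 were lower, against 25.1%. Such a split is common with 2 libraries a group, and an exact permutation test of 2 against 2 gives a two-sided p of 0.333 at the least.

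**Figure D5:**
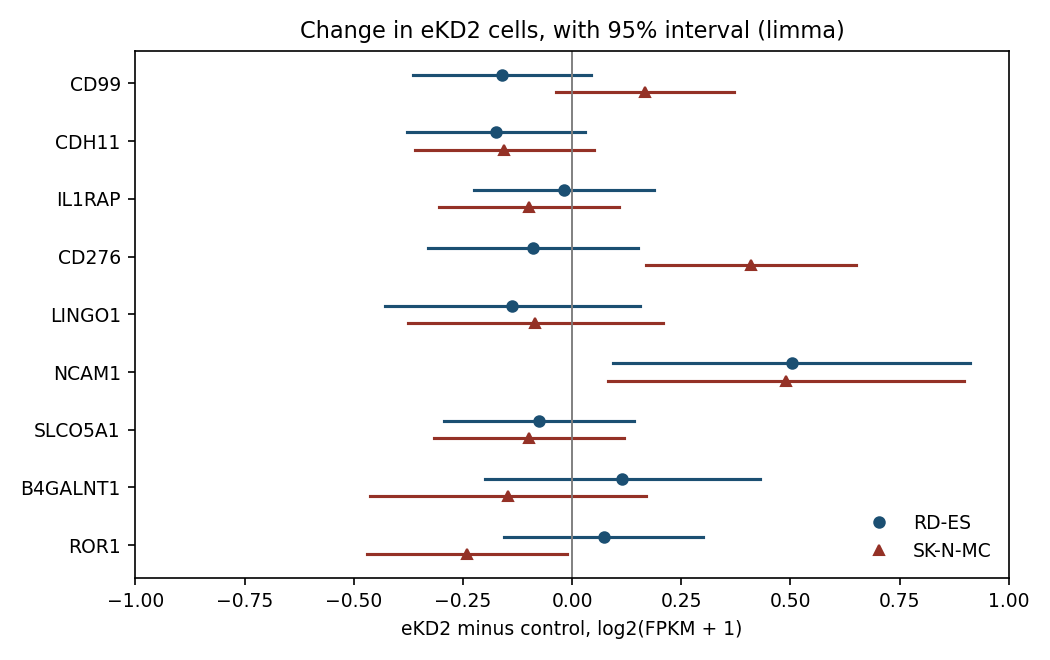
Change in log2(FPKM + 1) from control to eKD2 for the 9 tested members in RD-ES (blue circles) and SK-N-MC (red triangles), with the 95% interval of the limma fit. The intervals of NCAM1 in both lines and of CD276 and ROR1 in SK-N-MC do not include 0, and none of the 9 passed the adjusted threshold in either line.

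The change in SK-N-MC was then set against the change in RD-ES in the same fit. By limma 0 of 9 members differed with an adjusted p under 0.05, against 0.244% of all genes, and 2 members, CD276 and CD99, had an unadjusted p under 0.05, against 13.5%. For CD276 the change was 0.50 higher in SK-N-MC (SE 0.139, limma adjusted p = 0.245), and for CD99 0.33 higher (standard error 0.118, limma adjusted p = 0.322), both on the log2 scale. For NCAM1 the difference between the changes was -0.01 with a 95% interval of -0.59 to 0.56, and it turned to 0.07 with median scaling and 0.08 with quantile normalization.

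Genes related to the members by family or pathway were followed as 10 lists. In the ganglioside list 27 of 33 genes were tested and 0 changed in either line by limma. At an unadjusted p under 0.05 there were 5 in RD-ES (2 higher and 3 lower) and 4 in SK-N-MC, all higher. Of all tested genes 8.49% were higher and 3.79% lower in RD-ES, and 5.71% and 7.29% in SK-N-MC. The median change of the list was 0.08 in RD-ES cells and 0.03 in SK-N-MC cells (log2), against 0.03 and -0.0049 over all genes. Among the most abundant genes of the list were PSAP, a lysosomal activator of sphingolipid breakdown (295 and 317 FPKM in control and eKD2 cells of RD-ES, then 239.9 and 271 FPKM in those of SK-N-MC) and CMAS, which activates sialic acid (62.9, 68.4, 62.7 and 59.4 FPKM). B4GALT5 came nearest the threshold, at 21.0 ± 0.0422 FPKM in SK-N-MC control and 29.3 ± 1.23 in eKD2 (SD, n = 2 each, log2 change 0.46, limma adjusted p = 0.0859).

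In the list of IL1RAP partners and interleukin-1 signalling, 12 of 26 genes were tested. Counted by an unadjusted p under 0.05, RD-ES eKD2 had 4 higher and 0 lower genes and SK-N-MC eKD2 1 higher and 1 lower, beside 8.49% and 3.79% of all genes in the first line and 5.71% and 7.29% in the second, with median changes of 0.17 and -0.02 (log2). SLC7A11, the cystine transporter subunit placed in it for a reported tie to IL1RAP, was the 1 gene of all lists that changed in an eKD2 comparison. It rose in RD-ES from 10.9 and 11.2 to 28.5 and 22.6 FPKM, a log2 change of 1.13 (SE 0.122, limma adjusted p = 0.0301). This call was lost in 14 of 18 alternatives, 7 of which left out 1 library, with a log2 change of 0.97 to 1.29 and an adjusted p of 0.0191 to 0.49. In SK-N-MC it was at 68.2 and 68.3 FPKM in control and at 64.5 and 57.1 FPKM in eKD2 (log2 change -0.17, limma adjusted p = 0.627), and the difference between the lines' changes had a limma adjusted p of 0.0772, which fell to 0.0315 without RD-ES eKD2 replicate 2. Its heavy chain SLC3A2 averaged 170 FPKM in RD-ES control and 243 FPKM in eKD2 (limma adjusted p = 0.156), and 435 and 388 FPKM in SK-N-MC. IRAK1, a kinase of the pathway, averaged 69.2 and 65.2 FPKM in RD-ES and 62.8 and 89.3 FPKM in SK-N-MC, and the adaptor TAB2 31.2 and 39.5 FPKM in RD-ES and 59.7 and 47.5 FPKM in SK-N-MC. IL1R1, the receptor that IL1RAP joins, averaged 0.341 FPKM in RD-ES control and was listed at 0 in SK-N-MC, and was named after its value was seen.

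In the remaining lists no gene changed with knockdown by limma, and the counts at an unadjusted p under 0.05 are given in the order higher and lower. For each of these lists they are read beside 8.49% and 3.79% of all genes in RD-ES and 5.71% and 7.29% in SK-N-MC. The median changes of the lists lay between -0.06 (genes grouped with CD99) and 0.13 (LINGO1 relatives) in RD-ES cells (log2). In SK-N-MC cells they lay between -0.10 (cadherins and catenins) and 0.18 (NCAM1 relatives). Of the ROR1 receptors and WNT5A signalling, 23 of 27 genes were tested, with 1 and 1 in each line. CTTN (cortactin) averaged 143 and 141 FPKM in RD-ES control and eKD2 and 73.3 and 89.5 in SK-N-MC, RYK 58.7, 61.5, 94.6 and 103, and PTK7 65.6, 72.04, 68.6 and 68.5. Of the cadherins and catenins 15 of 29 were tested, with 1 and 0 in RD-ES and 0 and 1 in SK-N-MC. CTNNA1, the catenin that ties cadherins to actin, averaged 170.4, 158, 183 and 189 FPKM in the 4 groups in that order, CTNND1 79.4, 79.1, 88.7 and 78.2, and CTNNB1 75.1, 80.5, 47.5 and 52.3. Of the NCAM1 relatives 11 of 18 were tested, with 2 and 0 in each line. FGFR1, a signalling partner of NCAM1, averaged 88.2, 73.5, 159 and 165 FPKM, NCAM2 66.4, 73.2, 69.1 and 64.3, and ALCAM 20.002, 21.2, 69.8 and 72.3. Between the control groups 8 of these 11 genes were higher in SK-N-MC and 2 lower (limma adjusted p under 0.05), beside 31.4% and 26.4% of all tested genes.

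Of the B7 family and its partners 13 of 24 genes were tested, with 0 and 0 in RD-ES and 1 and 0 in SK-N-MC. CD47 averaged 28.3, 31.8, 45.3 and 54.2 FPKM in the 4 groups, PVR 20.4, 20.4, 35.8 and 43.3, and NECTIN2 31.7, 26.3, 24.2 and 25.8. Of the LINGO1 relatives and the Nogo receptor complex 9 of 25 were tested, with 1 and 1 in each line, led by RTN4 (Nogo, 90.3, 87.4, 133 and 163 FPKM), NGFR (47.3, 37.9, 36.2 and 35.5) and RTN4RL2 (5.02, 6.01, 14.6 and 15.7). Of the organic anion transporters 3 of 10 were tested, with 0 and 0 in each line, namely SLCO3A1 (21.2, 24.4, 16.6 and 17.9 FPKM), SLCO4A1 (10.7, 10.98, 8.97 and 9.81) and SLCO1C1 (0.1004, 0, 8.997 and 6.23). SLCO1C1 was higher in SK-N-MC control (limma adjusted p = 0.00139), the opposite direction to SLCO5A1. Its SK-N-MC control libraries lay far apart, at 12.9 and 5.07 FPKM, against 0.0287 and 0.172 FPKM in RD-ES control.

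Of the 9 genes grouped with CD99 all were tested, with 0 and 1 in each line, and the most abundant were PPIA (cyclophilin A, 1136, 1094, 999 and 975 FPKM), CAV1 (668, 639, 533 and 592) and RDX (radixin, 193, 188, 249 and 209). Of 36 other surface targets discussed for Ewing sarcoma 28 were tested, with 3 and 2 in RD-ES and 1 and 5 in SK-N-MC. TFRC, the transferrin receptor, averaged 174, 202, 137 and 129.8 FPKM, GLG1 117, 131, 146 and 152, and the death receptor TNFRSF10B 86.6, 99.4, 149.8 and 153. Between the control lines 15 of these 28 were higher in SK-N-MC and 5 lower (limma adjusted p under 0.05), beside 31.4% and 26.4% of all tested genes. Not every list leaned this way. Of the 27 tested ganglioside genes 7 were higher in SK-N-MC control and 11 lower. Of the 9 genes grouped with CD99, 1 was higher and 4 were lower.

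For each of the 9 members the genes nearest in pattern were sought among 11000 genes whose mean reached 5 FPKM, by the root mean square difference of centred log2(FPKM + 1) values over the 8 libraries. For CD99 these were TBC1D14 and CENPV (0.0375 and 0.0485), for CDH11 RDH10 and EPHB3 (0.0725 and 0.0795), for IL1RAP SMARCE1 and CD320 (0.0352 and 0.0389) and for CD276 SOGA1 and PPP1R14B (0.0443 and 0.0496). For ROR1 they were WASF1 and INTS8 (0.0508 and 0.0602), for B4GALNT1 RHOC and APBB2 (0.0540 and 0.0542), for SLCO5A1 SUFU and SF1 (0.0345 and 0.0358) and for LINGO1 CYC1 and DNM2 (0.0318 and 0.0402). By this measure NCAM1 had no gene as near, with AMY2B and ANTXR2 at 0.201 and 0.202. The Pearson r of these 2 genes with NCAM1 was 0.993 and 0.994. The 8 libraries fall into 4 groups that share their line, and the likeness is a description.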

How the data were processed

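The authors prepared poly-A selected libraries with a kit that does not keep strand, sequenced single-end reads, aligned them to GRCh37 (hg19) with STAR and used cufflinks and cuffnorm to obtain FPKM for each gene. Only these deposited FPKM values, which cuffnorm also scales between libraries, were analysed here. Read counts and depth are not given with them, and the depth of 6.84 to 27.4 M reads was estimated from the steps between low values. Values were compared as log2(FPKM + 1) with limma 3.58.1 in R 4.3.3 (lmFit, eBayes with trend), with the 4 groups of 2 libraries in 1 fit and Benjamini-Hochberg adjustment over the 15175 genes whose mean reached 1 FPKM. A difference on this scale understates the change of low genes. The study tested read counts with DESeq2, which FPKM do not allow. The script was tested on simulated data.

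All 10 members are named. From the gene lists the text names each gene past the adjusted threshold in an eKD2 comparison and the 3 with the highest mean, apart from 1 gene that is not reported here. The members and lists were chosen with earlier results of these data known. Positions come from the GENCODE annotation lifted to GRCh37, and sequences from the GRCh37 reference. CD24 and PECAM1 of the lists were not matched and are not analysed here. Alternatives were pseudocounts of 0.1 and 0.5, no filter, a minimum of 5 FPKM, median scaling, quantile normalization, eBayes without trend, each line alone, replicate blocks, and each library left out in turn.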

Additional observations from a re-analysis of the deposited data

Results flagged for a closer look

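In 4 of the 9 tested members, both eKD2 libraries lay on 1 side of the control mean in RD-ES and on the other side in SK-N-MC, as they did in 22.3% of all tested genes. The change in SK-N-MC minus the change in RD-ES was 0.33 for CD99 (limma adjusted p = 0.322), 0.50 for CD276 (limma adjusted p = 0.245), -0.31 for ROR1 (limma adjusted p = 0.384) and -0.26 for B4GALNT1 (limma adjusted p = 0.599), all on the log2 scale with 2 libraries a group. None passed the adjusted threshold. CD99 and CD276 were lower in RD-ES eKD2 and higher in SK-N-MC eKD2, and ROR1 and B4GALNT1 the reverse. After quantile normalization the ROR1 change in RD-ES was -0.0068. In 3 members both eKD2 libraries lay on the same side in both lines, against 21.6% of all tested genes.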

How the results depend on the processing

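The counts of members past the threshold were 0 in both eKD2 comparisons and in the difference between them under every alternative, and 6 to 8 of the members between the lines. Of the members' values under the alternatives, 158 of 162 in RD-ES, 161 of 162 in SK-N-MC, 144 of 153 between the lines and 134 of 153 for the difference between changes kept their sign and their side of the threshold. The signs that turned belonged to values short of the threshold. In RD-ES, quantile normalization gave -0.0068 for ROR1. Between the lines, B4GALNT1 was -0.11 with median scaling and -0.12 with quantile normalization. For the difference between changes, NCAM1 was 0.065 and 0.084 and SLCO5A1 0.054 and 0.038 with median scaling and quantile normalization.

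Without 1 library at a time, the log2 values ranged from -0.11 to 0.074 for IL1RAP and from -0.15 to 0.0021 for SLCO5A1 in RD-ES, from -0.17 to 0.0066 for LINGO1 in SK-N-MC, and from -0.069 to 0.12 for B4GALNT1 between the lines. For the difference between changes they ranged from -0.17 to 0.011 for IL1RAP, -0.24 to 0.21 for NCAM1, -0.057 to 0.098 for CDH11, -0.10 to 0.053 for SLCO5A1 and -0.045 to 0.15 for LINGO1. The cause was not tested. SLC7A11 in RD-ES kept its direction and lost its call in 14 of 18 alternatives.

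The libraries carry replicate numbers, but the deviations of same-numbered libraries correlated with r of -0.021 to 0.064 across genes, under the 0.1 set for taking them as pairs. In the 9 tested members replicate 2 was the higher one for 7 in either RD-ES group, and in SK-N-MC for 6 under control and 9 under eKD2, with 4 members showing this order in all 4 groups. The same order was not counted over all tested genes, so it is not read as particular to the members. With the replicate block, LINGO1 between the lines had an adjusted p of 0.0354 (block within each line) and 0.0168 (block shared over the lines), past the threshold. No member passed the threshold in an eKD2 comparison with either block. The genes past the threshold went from 52 in RD-ES cells and 49 in SK-N-MC cells to 11 and 5 with the block within lines and 36 and 33 with the shared block, to 79 and 118 without the filter, to 1 and 13 with each line alone, and to 27 to 71 and 12 to 76 without 1 library. For the difference between changes 37 genes became 66 without the filter, 24 with a minimum of 5 FPKM, 7 and 22 with the blocks and 54 to 81 without 1 library. Among RD-ES genes with an unadjusted p under 0.05, 69.1% lay higher in eKD2 as deposited, 40.6% with median scaling and 53.7% with quantile normalization, and for the difference between changes 32.4%, 56.4% and 43.4%.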

Other observations

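Other genes of the lists differed between the lines by more than most members. PTPRC, which encodes the leukocyte phosphatase CD45, was at 22.6 and 21.5 FPKM in SK-N-MC control and at 21.8 and 19.2 FPKM in SK-N-MC eKD2, against 0.0173 and 0.0136 FPKM in RD-ES control and 0 and 0.0155 FPKM in RD-ES eKD2. Between the control groups the log2 difference was 4.50 (limma adjusted p = 5.14e-06). Of the other haematopoietic markers, ITGAM averaged 0.711 FPKM and CD14 0.0261 FPKM in SK-N-MC control, and CD3E was listed at 0. WNT5A, a ligand of ROR1, ran opposite to ROR1 between the lines, with means of 42.6 FPKM in RD-ES control and 10.9 FPKM in SK-N-MC control. These genes were chosen after their values were seen.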
